A study of Mus musculus with 8 samples.

Results

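Amino acids cross membranes through carrier proteins, and 6 gene families that hold many of these carriers were followed here in fat lacking the protease Senp2 in adipocytes. The families were Slc1, Slc3, Slc7, Slc36, Slc38 and Slc43, and every array probe whose gene symbol is one of these family names followed by the letter a and a number was taken. This gave 57 probes for 42 genes among 55681 probes on the array, and the 42 genes are all the genes of that name in the RefSeq table used for naming. The tissue was inguinal white fat, the pad of the groin, and its RNA was measured on 4 arrays from Senp2-aKO mice (Senp2flox/flox ; Adipoq Cre) and 4 from control mice (Senp2flox/flox). Both groups carried the floxed Senp2 alleles, and in the Senp2-aKO mice Cre recombinase was under adiponectin control (Adipoq), which is active in adipocytes, whereas the pad also holds other cells. Mice of both groups were 8 weeks old when a diet with 58 kcal% fat began, ate it for 12 weeks and were housed at 22 to 24 °C. Nothing in the labels says how many mice gave 1 sample, so that the p-values measure the spread between these samples.

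In these families the carriers divide the work. Slc1 proteins bring in glutamate or small neutral amino acids such as alanine, serine and glutamine. Slc7 holds carriers of cationic amino acids that work alone and light chains that pair with a heavy chain of the Slc3 family and exchange one amino acid for another. Many Slc38 proteins use sodium to concentrate neutral amino acids, Slc36 proteins use protons, and Slc43 holds carriers of large neutral amino acids. Not every member is a carrier of amino acids, since Slc43a3 carries purine nucleobases, and the counts below include it. In fat, Slc7a10 is known as a surface marker of white adipocytes and Slc36a2 as one of beige and brown adipocytes. Several carriers, Slc38a2 among them, are known targets of the amino acid response, in which the factor ATF4 binds elements shared with C/EBP factors.

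All 8 arrays lay on 1 slide, with the Senp2-aKO arrays in one row of it and the controls in another, and the effects of row and group cannot be told apart. Between 29305 and 30972 probes were well above background on the Senp2-aKO arrays, against 30253 to 31362 on the control arrays, and the number of arrays limits the precision. Senp2 itself had levels in Senp2-aKO fat that were 82.8% of those in control fat (95% interval 72.4 to 94.8). All 4 Senp2-aKO arrays lay below the 4 controls, and the limma test across all probes did not call the difference (adjusted p = 0.0796). Of the defining markers, the 8 of the adipocyte list were above background on all arrays. The mean log2 level of the 18 skeletal muscle markers was 3.44 to 5.06 on the Senp2-aKO arrays and -1.58 to 1.69 on the controls. The array aKO 2 stood apart in its lymphocyte markers, with a T lymphocyte mean of 2.37 against -1.19 to -0.41 on the other Senp2-aKO arrays and -0.66 to 0.18 on the controls. Tissue RNA was measured in bulk, where fewer cells of a type and less RNA per cell cannot be told apart.

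Promoter sequences of carriers are shown because the series concerns C/EBPβ, and because some carrier genes that neighbour each other were higher in Senp2-aKO fat. These were Slc38a2 with Slc38a4, and Slc43a1 with Slc43a3, while other neighbours were not. RefSeq (GRCm38.p6) gave 42 windows of 300 bases, from 250 before to 50 after a start site, for 31 of the 42 genes, Slc38a4 and 6 others having several. They were searched on both strands for the C/EBP-ATF element TGATGNAA and for the C/EBP palindrome TTGCGCAA, neither of which contains the other. The element was found in 4 of the 42 windows (9.52%), belonging to Slc1a4, Slc7a7 and Slc7a11, against 3.97% of all 32851 promoter windows. The Slc7a7 windows with the element overlap and share the same TGATGCAA site, which is thus counted more than once. By gene it was found in 3 of 31, against 1219 of 27025 genes in all. The palindrome was in 0 of the 42 windows, against 0.183% of all windows. The genes Slc38a1, Slc38a2 and Slc38a4 follow each other on chromosome 15 with no coding gene between them, and 1 coding gene lies between Slc43a1 and Slc43a3 on chromosome 2. Of these, Slc38a1 did not pass the test (log2 fold change 0.22). On chromosome 11, Slc36a3, Slc36a2 and Slc36a1 also follow each other with no coding gene between them. There Slc36a3 was not measured, and Slc36a2 (log2 fold change 0.34) and Slc36a1 (-0.25) did not pass. The windows of Slc38a2 (chr15:96699679-96699978, minus strand), Slc38a4 (the most upstream of its 3 starts, chr15:97055907-97056206, minus strand) and Slc43a1 (chr2:84840073-84840372, plus strand) are those of genes that rose. That of Slc1a4 (chr11:20332664-20332963, minus strand) shows the element, in capitals, read on the opposite strand and beginning 4 bases before the start site. In the first 3 windows these letters do not occur, and sequence outside the windows, such as introns further on, was not searched. Sequences are written 5′ to 3′ on the strand of the gene.
Slc38a2: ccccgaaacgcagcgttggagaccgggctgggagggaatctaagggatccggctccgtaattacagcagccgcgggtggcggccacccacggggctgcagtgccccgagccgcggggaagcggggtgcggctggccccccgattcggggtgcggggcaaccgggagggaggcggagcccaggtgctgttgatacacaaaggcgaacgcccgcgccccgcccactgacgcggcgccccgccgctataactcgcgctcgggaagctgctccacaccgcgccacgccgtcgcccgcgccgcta
Slc38a4: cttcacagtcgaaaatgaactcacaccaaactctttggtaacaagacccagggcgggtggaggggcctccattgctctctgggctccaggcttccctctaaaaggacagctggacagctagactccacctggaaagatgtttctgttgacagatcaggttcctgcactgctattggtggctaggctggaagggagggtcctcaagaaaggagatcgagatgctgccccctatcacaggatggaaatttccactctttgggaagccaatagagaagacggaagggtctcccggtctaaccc
Slc43a1: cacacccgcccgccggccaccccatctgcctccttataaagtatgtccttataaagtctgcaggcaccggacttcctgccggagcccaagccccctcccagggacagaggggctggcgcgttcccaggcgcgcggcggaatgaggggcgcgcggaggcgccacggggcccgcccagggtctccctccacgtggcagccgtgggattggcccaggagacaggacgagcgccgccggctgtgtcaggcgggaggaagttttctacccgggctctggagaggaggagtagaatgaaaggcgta
Slc1a4: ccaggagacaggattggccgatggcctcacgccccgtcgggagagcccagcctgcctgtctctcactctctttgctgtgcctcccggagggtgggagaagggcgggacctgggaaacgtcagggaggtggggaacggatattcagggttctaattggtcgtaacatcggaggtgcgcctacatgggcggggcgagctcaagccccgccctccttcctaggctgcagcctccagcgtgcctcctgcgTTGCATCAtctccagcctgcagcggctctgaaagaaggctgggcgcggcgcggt

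The window of Slc38a2 is rich in G and C (73.0%), as is that of Slc43a1 (67.7%), while that of Slc38a4 is at 53.0%. Among the genes that passed the test, Slc43a3 and Slc7a4 had no window in the table.

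Of the 42 genes, 30 were measured, meaning that at least 1 probe was well above background on 4 or more of the 8 arrays whatever the group, and the probe with the highest mean stood for its gene. In Senp2-aKO fat 6 of the 30 genes rose, 2 fell and 22 did not pass the limma test at a Benjamini-Hochberg adjusted p under 0.05 over all 30508 measured probes. The 8 that passed are 26.7% of the 30, against 11.8% of all 14730 genes measured in this way, of which 6.13% rose and 5.72% fell. Counted by probe, 8 of 38 measured carrier probes passed, against 9.83% of all 30508 probes (5.48% higher and 4.35% lower). In 10 of the 30 genes (33.3%) the Senp2-aKO and control arrays did not overlap, against 26.3% of all genes. The median log2 fold change (Senp2-aKO minus control) was 0.15 for the 30 genes and -0.02 for all genes. The median turned to -0.003 with array weights, was 0.04 after background modelling on the median signals with quantile normalisation, and 0.01 without aKO 2. The rises numbered 3 without control 1. Falls numbered 0 without control 1, control 3 or aKO 4, and 1 without control 2, aKO 1, aKO 2 or aKO 3.

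**Figure D1:**
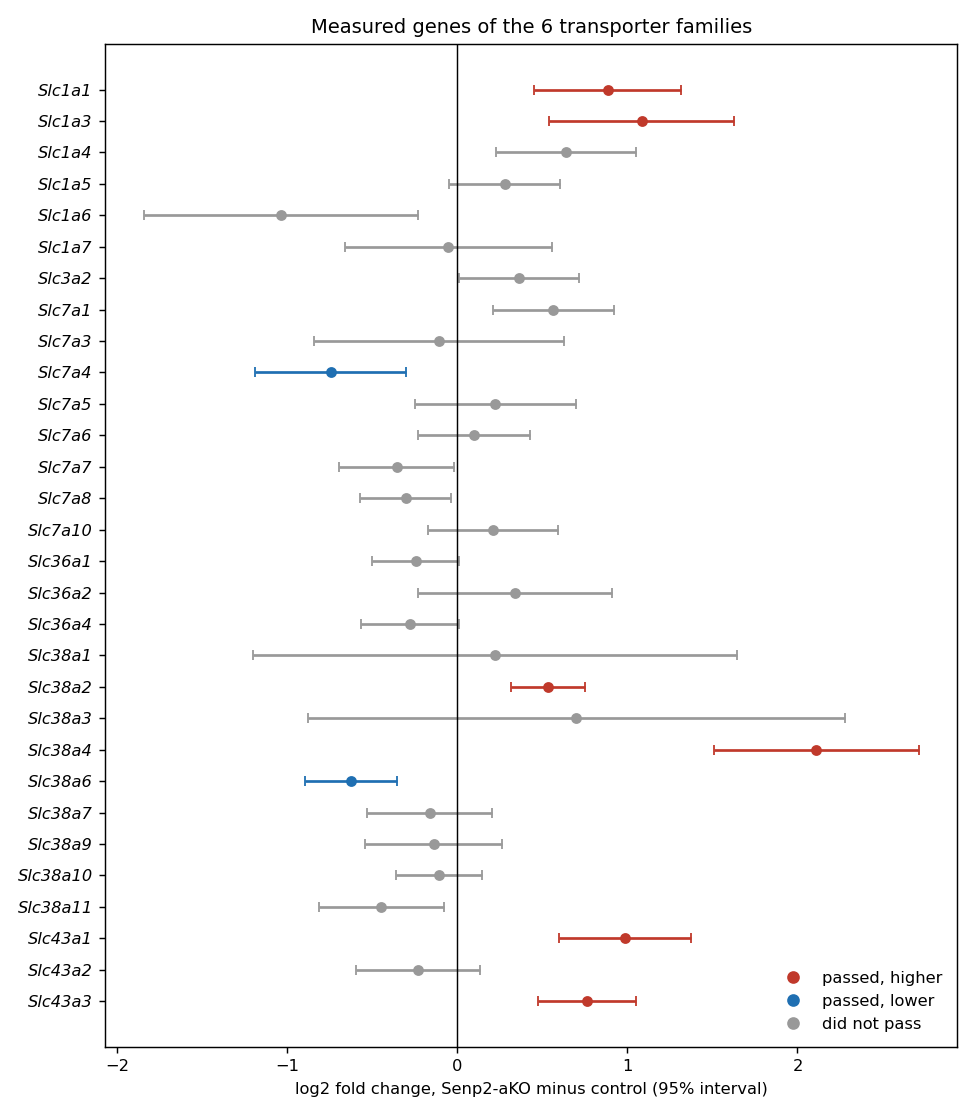
Log2 fold change (Senp2-aKO minus control) of the 30 measured carrier genes, by family from top to bottom, with 95% intervals from the limma fit (n = 4 arrays per group). Slc38a4 lies farthest to the right at 2.11, and Slc38a1 and Slc38a3 have the widest intervals.

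Among sodium-coupled carriers of the Slc38 family, 2 of 9 measured genes rose and 1 fell, together 33.3% against 11.8% of all genes. Slc38a4, a carrier of neutral amino acids that is strongly expressed in liver and also found in muscle, had log2 levels of -3.25, -2.23, -2.10 and -2.74 on the Senp2-aKO arrays and of -4.37, -4.79, -4.60 and -5.01 on the control arrays. A level here is a log2 signal minus the 75th percentile of log2 signals on the array, so that negative values mean dimmer than that percentile. Slc38a4 rose 4.32-fold (95% interval 2.85 to 6.56, adjusted p by limma 0.0059). After background modelling on the median signals with quantile normalisation the log2 fold change was 0.755 in place of 2.11, and it still passed (adjusted p = 0.00721). The 4 Senp2-aKO arrays lay above all controls, and control 4 was the array on which the probe was not above background. The muscle list mean was 3.44, 4.28, 5.06 and 4.16 on the same Senp2-aKO arrays. It was -1.58, -1.56, 1.69 and 1.07 on controls 1 to 4. The part of muscle RNA in the result was not tested.

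Slc38a2, the carrier of small neutral amino acids that cells raise when amino acids are short, had levels of 2.46, 2.59, 2.68 and 2.73 on the Senp2-aKO arrays, against 2.04, 2.11, 2.07 and 2.11 on the controls. The controls were close together, with each Senp2-aKO array above the highest of them. Slc38a2 rose 1.45-fold (95% interval 1.24 to 1.68, adjusted p by limma 0.0159). The call ended without control 1 (adjusted p = 0.0592) and held in the other 7 omissions. Slc38a6, a less studied carrier of the family, fell, with levels of -1.59, -1.65, -1.92 and -1.78 on the Senp2-aKO arrays against -1.15, -1.23, -0.89 and -1.17 on the controls. The groups did not overlap, and the log2 fold change was -0.63 (SE 0.12, adjusted p by limma 0.0188). Without control 1, control 3 or aKO 4 that call ended, at adjusted p-values of 0.0504 to 0.0592.

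Slc38a1, which carries glutamine and other neutral amino acids, showed 1 array far from the rest. Its level was 1.99 on aKO 2 and -0.87 to -0.64 on the other Senp2-aKO arrays, against -0.74 to 0.10 on the controls, and the log2 fold change was 0.22 (SE 0.62, adjusted p by limma 0.849). Without aKO 2 it was -0.47 (adjusted p = 0.216). A second probe of Slc38a1 gave -1.18 on aKO 2 and -3.89 to -3.53 on the other Senp2-aKO arrays, against -3.48 to -2.71 on the controls. The T lymphocyte list, with 6 of 7 genes measured and Cd8a not among them, had a summed linear level of 38.6 on aKO 2, the highest of the 4 Senp2-aKO arrays (from 6.57), against 6.58 to 9.28 on the controls. On aKO 2 the B lymphocyte list mean was 2.08, and -3.23 to -2.92 on the other Senp2-aKO arrays, against -3.53 to -0.64 on the controls. The part of lymphocyte RNA in the Slc38a1 level was not tested.

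The remaining measured Slc38 genes did not pass. Slc38a3, which moves glutamine in liver and kidney, ranged over -3.15 to -1.68 in Senp2-aKO fat and over -4.28 to -1.0 in controls, where control 2 was the highest array of all. Its log2 fold change was 0.70 (SE 0.69), and 1.43 without control 2 (adjusted p by limma 0.0629). Slc38a9, a sensor of lysosomal arginine for the kinase mTORC1, was at -0.69 to 0.15 on the Senp2-aKO arrays and at -0.17 to -0.10 on the controls (log2 fold change -0.14, SE 0.18). Its controls agreed closely, whereas the Senp2-aKO arrays lay on both sides of them. Slc38a7, Slc38a10 and Slc38a11 had log2 fold changes of -0.16, -0.11 and -0.45.

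Of the 3 Slc43 genes, 2 rose, where 6.13% of all genes did. Slc43a1, also known as LAT3, a carrier of large neutral amino acids such as leucine, had levels of 1.79, 1.77, 1.36 and 1.39 on the Senp2-aKO arrays and of 0.36, 0.95, 0.42 and 0.63 on the controls. It rose 1.98-fold (95% interval 1.52 to 2.59, adjusted p by limma 0.0145), with no overlap between groups. Slc43a3, which carries purine nucleobases rather than amino acids, had levels of 4.19, 4.28, 3.85 and 3.94 on the Senp2-aKO arrays, against 3.25, 3.31, 3.20 and 3.47 on the controls. It rose 1.69-fold (95% interval 1.39 to 2.07, adjusted p by limma 0.0131). For both genes aKO 1 and aKO 2 were the higher arrays and aKO 3 and aKO 4 the lower ones of their group. Together with Slc38a4 these were the genes that passed on leaving out any single array, with adjusted p up to 0.0494 for Slc43a1, 0.0482 for Slc43a3 and 0.0215 for Slc38a4. Slc43a2, or LAT4, which lets branched chain amino acids and methionine out of cells, was at 0.39 to 1.02 in Senp2-aKO fat and 0.80 to 1.20 in controls (log2 fold change -0.23, SE 0.16, adjusted p = 0.380).

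**Figure D2:**
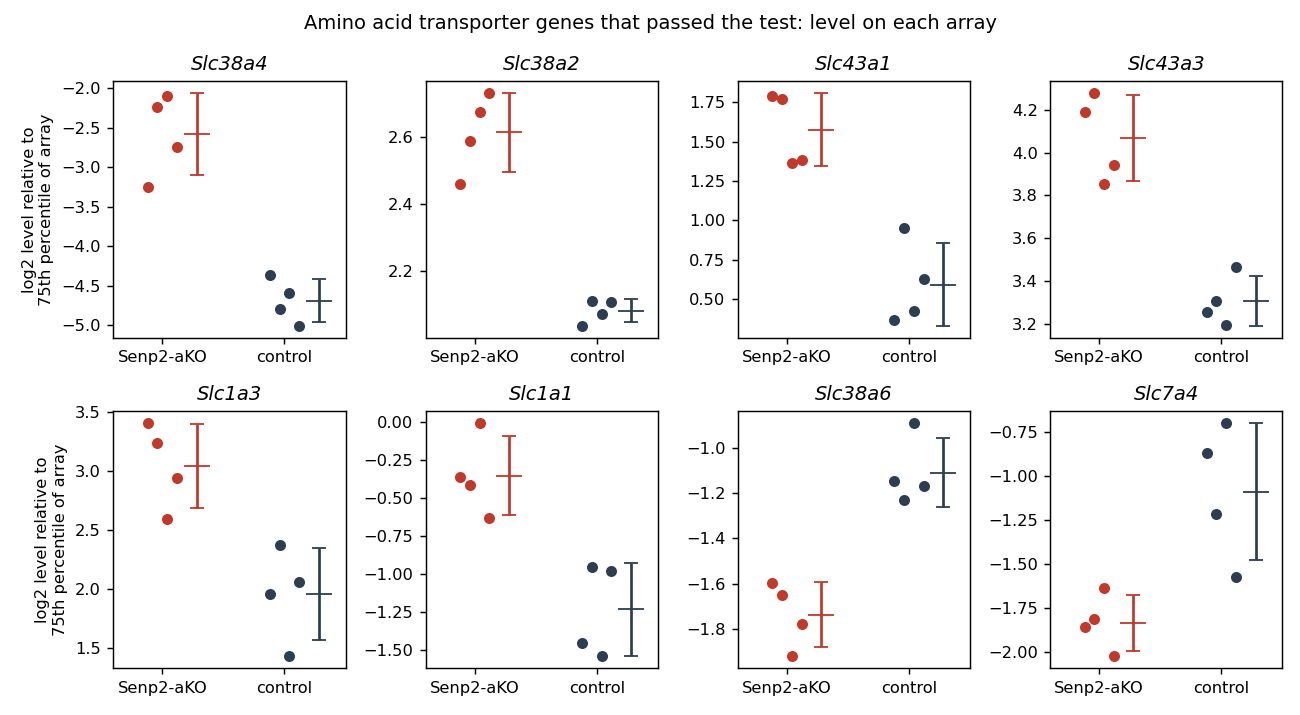
Log2 level relative to the 75th percentile of the array for the 8 carrier genes that passed the test, with 1 point per array and the mean and SD beside the points (n = 4 per group). Each panel has its own axis, and in none of them do the Senp2-aKO and control arrays overlap.

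In the Slc1 family, which supplies cells with glutamate and small neutral amino acids, 2 of 6 measured genes rose (33.3%, against 6.13% of all genes). Slc1a3, the glutamate and aspartate carrier GLAST best known from astrocytes, had levels of 3.40, 3.23, 2.59 and 2.94 on the Senp2-aKO arrays and of 1.96, 2.37, 1.43 and 2.06 on the controls. It rose 2.12-fold (95% interval 1.46 to 3.09, adjusted p by limma 0.0282), with all Senp2-aKO arrays above the controls. Slc1a1, a glutamate carrier that also takes up cysteine, had levels of -0.36, -0.41, -0.003 and -0.63 on the Senp2-aKO arrays, against -1.46, -0.96, -1.54 and -0.98 on the controls. It rose 1.84-fold (95% interval 1.37 to 2.49, adjusted p by limma 0.0264). Leaving out aKO 1, aKO 4, control 1, control 3 or control 4 ended the call of Slc1a3, with values of adjusted p between 0.0604 and 0.0782. Leaving out aKO 1, control 1 or control 3 did so for Slc1a1 (0.0606 to 0.0803).

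The neutral amino acid exchangers of this family did not pass. Slc1a4, or ASCT1, had levels of 2.36, 2.40, 1.72 and 2.45 on the Senp2-aKO arrays and of 1.43 to 1.74 on the controls (log2 fold change 0.64, SE 0.18, adjusted p by limma 0.0606). Under 4 alternatives it passed (adjusted p from 0.0338 to 0.0494). The array aKO 3 lay at the top of the control range and the other 3 above it, and without aKO 3 the log2 fold change was 0.81 (adjusted p = 0.0109). Slc1a5, or ASCT2, a main route of glutamine into many cells, had levels of 7.10, 6.52, 7.02 and 6.96 on the Senp2-aKO arrays, against 6.69, 6.68, 6.47 and 6.65 on the controls (log2 fold change 0.28, SE 0.14, adjusted p = 0.238). Here aKO 2 lay among the controls, and without it the log2 fold change was 0.41 (adjusted p = 0.0350). On all arrays it was 0.065 under quantile normalisation and 0.031 under background modelling with it (adjusted p by limma 0.776 and 0.895). A second probe of Slc1a5, above background on all 8 arrays, gave 0.411 as reported (SE 0.154) and did not pass either (adjusted p by limma 0.127). Slc1a6, a glutamate carrier of cerebellar neurons, was dim, at -5.56 to -3.95 in Senp2-aKO fat and -3.83 to -3.05 in controls, and did not pass (log2 fold change -1.04, SE 0.35, adjusted p = 0.0991). Slc1a7, known from the retina, had a log2 fold change of -0.05.

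Of the 3 measured cationic carriers of the Slc7 family, 1 fell, where 5.72% of all genes did, and the others did not pass. Slc7a1, or CAT1, the general carrier of arginine and lysine, had levels of 1.98, 2.48, 2.46 and 2.09 on the Senp2-aKO arrays and of 1.42 to 1.86 on the controls. Its groups did not overlap, and it did not pass (log2 fold change 0.56, SE 0.16, adjusted p by limma 0.0571). It passed under 3 alternatives (adjusted p from 0.0301 to 0.0466). Slc7a4, a relative of the cationic carriers whose transport function is not settled, fell, with levels of -1.86, -1.81, -1.64 and -2.03 on the Senp2-aKO arrays against -0.87, -1.22, -0.70 and -1.58 on the controls. It differed by -0.74 on the log2 scale (SE 0.19, adjusted p by limma 0.0484). The gap between the groups was narrow at control 4, and the call held on leaving out control 4 and ended on leaving out any other array (0.0547 to 0.130). A second Slc7a4 probe was above background on 0 of 8 arrays. Slc7a3 was dim and had a log2 fold change of -0.11, and Slc7a2 and Slc7a14 were not measured.

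The heavy chain Slc3a2, known as CD98, which carries light chains to the cell surface, had levels of 5.16, 5.44, 5.01 and 5.35 on the Senp2-aKO arrays and of 5.12, 4.93, 4.92 and 4.54 on the controls. The groups overlapped, and it did not pass (log2 fold change 0.36, SE 0.15, adjusted p by limma 0.165). The other heavy chain, Slc3a1 of kidney and intestine, was above background on 0 of 8 arrays. Of 10 light chain genes 5 were measured and 0 passed in limma, with 2 lower at an unadjusted p under 0.05 (Slc7a7 and Slc7a8), where 31.2% of all genes are under that value. Slc7a10, the white adipocyte marker Asc-1, had levels of 5.55, 5.19, 5.54 and 5.66 on the Senp2-aKO arrays and of 5.51, 5.21, 5.48 and 4.90 on the controls. The groups overlapped, and the difference was 1.16-fold with a 95% interval of 0.886 to 1.51 (adjusted p = 0.447). Slc7a5, or LAT1, which exchanges glutamine for leucine in growing cells, had levels of -2.43, -1.61, -2.13 and -2.60 on the Senp2-aKO arrays against -2.23, -2.51, -2.40 and -2.54 on the controls. Its log2 fold change was 0.22 (SE 0.21, adjusted p = 0.514), while a second probe gave -0.43 (SE 0.48), with control 1 at -0.62 and the other controls at -3.05 to -2.41.

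Slc7a7, a light chain that exports arginine and lysine and is expressed in macrophages, was at 1.49 to 1.75 in Senp2-aKO fat and at 1.74 to 2.35 in controls (log2 fold change -0.36, SE 0.15, adjusted p by limma 0.160). The highest array was control 3, which also had the highest macrophage list mean (3.0, against 2.15 to 2.77 on the Senp2-aKO arrays and 1.92 to 2.57 on the other controls). Of the 10 macrophage genes 9 were measured, and their summed level was 106 to 155 in Senp2-aKO fat and 91.4 to 166 in controls. Their log2 fold changes were positive for 6 and negative for 3, from -1.71 to 1.04. The part of macrophage RNA in the Slc7a7 level was not tested. Slc7a8, or LAT2, a light chain that carries neutral amino acids, was at 1.20 to 1.34 in Senp2-aKO fat and at 1.28 to 1.71 in controls (log2 fold change -0.30, SE 0.12, adjusted p = 0.136). Slc7a6, an exchanger of cationic for neutral amino acids, had a log2 fold change of 0.10 (SE 0.14). Slc7a11, the cystine carrier xCT, was above background on 0 of 8 arrays, so that no difference could be measured. Its promoter window holds the C/EBP-ATF element, and a link between that element and the levels was not tested.

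Of the proton-coupled Slc36 carriers, 3 of 4 genes were measured and 0 passed in limma, with 0 at an unadjusted p under 0.05. Slc36a2, the carrier PAT2 known from the surface of beige and brown adipocytes, had levels of 5.74, 4.94, 5.60 and 6.21 on the Senp2-aKO arrays and of 5.07, 5.16, 5.43 and 5.46 on the controls. The array aKO 2 was the lowest and aKO 4 the highest of all 8, and the difference was 1.27-fold with a 95% interval of 0.853 to 1.88 (adjusted p = 0.404). Without aKO 2 the log2 fold change was 0.57 (adjusted p = 0.0764). The brown and beige list mean, which holds Ucp1, was 3.45, 3.65, 3.24 and 4.48 on the Senp2-aKO arrays, against 0.56 to 1.23 on the controls, and aKO 4 was the highest array in it too. Of the 10 genes of that list 9 were measured and 8 rose (88.9%, against 6.13% of all genes). Their summed level was 295 to 664 in Senp2-aKO fat and 45.7 to 112 in controls. The part of such cells in the Slc36a2 level was not tested. Slc36a1 and Slc36a4, carriers of lysosomes and of other inner membranes, had log2 fold changes of -0.25 and -0.28, and their neighbour in name Slc36a3 was not measured.

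**Figure D3:**
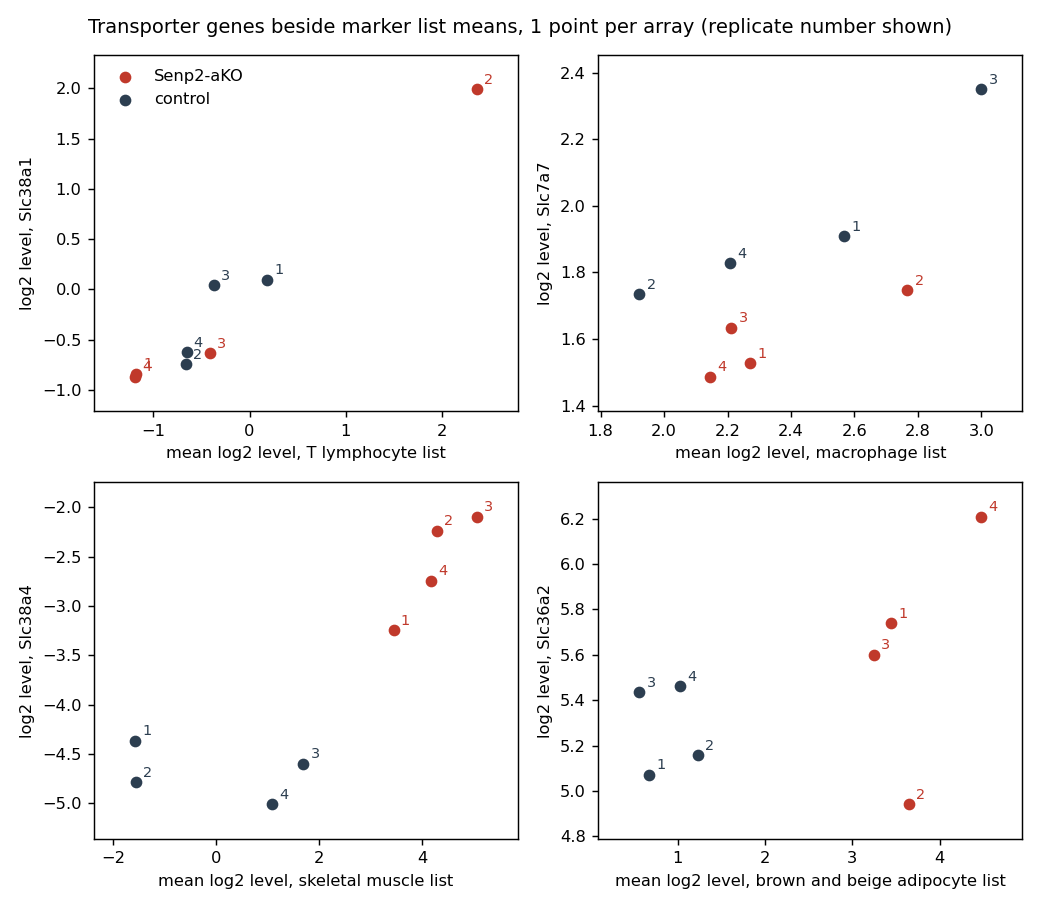
Log2 level of 4 carrier genes against the mean log2 level of a marker list on the same array, 1 point per array with its replicate number. The array aKO 2 stands alone for Slc38a1 and the T lymphocyte list, and control 3 is highest for Slc7a7 and the macrophage list.

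The other 12 of the 42 genes were not measured. Of these, Slc7a13 was above background on 0 of 4 Senp2-aKO and 3 of 4 control arrays, and Slc38a5 on 2 of 4 and 0 of 4. Slc1a2 and Slc36a3 were above background on 1 Senp2-aKO array each by 1 of their probes. The remaining 8, among them Slc3a1, Slc7a2, Slc7a9 and Slc7a11, were above background on 0 of 8 arrays. Of the 30 measured genes 7 had several measured probes, and 0 of their 8 further probes passed in limma, with 1 at an unadjusted p under 0.05. The probes of Slc7a5 and those of Slc38a9 differed in the sign of the log2 fold change. Under quantile normalisation, and under background modelling with it, the sign was kept in all 30 genes. The size was not always kept, as in Slc1a5 (0.278 as reported, then 0.065 and 0.031).

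Besides the muscle list and the brown and beige list, 2 marker lists had means that did not overlap between groups. The mammary epithelium mean was -3.08 to -2.15 on the Senp2-aKO arrays and -4.01 to -3.33 on the controls, with 7 of 10 genes measured, Epcam, Krt8 and Elf5 not among them, and a summed linear level of 1.11 to 3.90 against 0.56 to 0.93. The adipose progenitor mean was 4.48 to 4.75 on the Senp2-aKO arrays and 4.0 to 4.38 on the controls. Of its 7 genes, all measured, 2 rose and 1 fell, Pdgfrb (log2 fold change -0.71), together 42.9% against 11.8% of all genes. For muscle, 18 of 18 genes were measured and the summed level was 669 to 1872 in Senp2-aKO fat against 32.8 to 161 in controls. The adipocyte mean overlapped, at 7.34 to 7.79 in Senp2-aKO fat and 7.66 to 7.96 in controls. In that list 1 of 8 genes (12.5%) passed, Lep, which fell (log2 fold change -1.85, adjusted p by limma 0.0092). The endothelium mean (1.58 to 2.24 in Senp2-aKO fat, 1.86 to 2.17 in controls) and the Schwann cell mean (0.58 to 0.83 in Senp2-aKO fat, 0.75 to 0.97 in controls) overlapped too. The part of these cell types in the carrier results, and in those of the other lists given below, was not tested.

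Other carriers of amino acids, from a list of 27 genes outside the 6 families, did not follow 1 direction. Of 20 measured, 2 rose and 2 fell in limma, with a median log2 fold change of -0.19. The share that passed was 20%, against 11.8% of all genes. Slc25a29 and Slc25a12, mitochondrial carriers of basic amino acids and of aspartate and glutamate, had log2 fold changes of 1.03 (SE 0.24) and 0.88 (SE 0.21). Slc16a10, or TAT1, through which aromatic amino acids leave cells, was at -1.49, -1.46, -0.90 and -1.16 on the Senp2-aKO arrays and at -0.31, -0.41, -0.20 and -0.42 on the controls. It fell (log2 fold change -0.92, SE 0.15, adjusted p by limma 0.0120) and passed in all 8 omissions of an array, and the mitochondrial ornithine carrier Slc25a15 had -0.67 (SE 0.17, adjusted p = 0.0407). The Slc25a15 probe was above background on 5 of 8 arrays and passed in 1 of the 8 omissions, and Slc25a29 and Slc25a12 passed in 2 each. Over the omissions 0 to 1 genes of this list rose and 1 to 3 fell.

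Enzymes that use what the carriers bring in included some that rose and some that fell. Among 17 measured enzymes of glutamine, glutamate and glutathione 4 rose and 1 fell (median 0.02). Together these are 29.4% of the list, against 11.8% of all genes (6.13% higher and 5.72% lower). Glul, which makes glutamine from glutamate, had levels of 6.90, 6.60, 6.23 and 6.82 on the Senp2-aKO arrays, against 5.65, 5.65, 5.68 and 5.75 on the controls. It rose 1.94-fold (adjusted p by limma 0.0110), and its 4 controls differed by little. Got1, the cytosolic aspartate aminotransferase, rose 1.92-fold (adjusted p = 0.0103), and Gls2, a glutaminase, rose (log2 fold change 0.81, SE 0.21, adjusted p = 0.0475) but passed in 0 of the 8 omissions (0.0537 to 0.118). Ggt6, of the gamma-glutamyltransferase family, fell (-2.68, SE 0.40). Of 8 branched chain amino acid enzymes 1 (12.5%) rose, the dehydrogenase subunit Bckdhb (1.05, SE 0.20), with a median of 0.36. Of 12 arginine and polyamine enzymes 2 (16.7%) fell and 0 rose, with a median of 0.04. These were the nitric oxide synthase Nos2 (-1.30, SE 0.27) and Azin2, a regulator of polyamine synthesis (-0.75, SE 0.15). Over the omissions 2 to 3 genes rose and 1 to 2 fell among the enzymes of glutamine, glutamate and glutathione, 0 to 2 rose among the branched chain enzymes, and 0 to 2 fell among those of arginine and polyamines.

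Genes of the amino acid response were divided. Of 24 measured, 4 rose and 4 fell in limma, with a median log2 fold change of -0.21. The share that passed was 33.3%, against 11.8% of all genes. Log2 fold changes were positive in 10 of the 24 genes and negative in 14. Atf4, which encodes the factor ATF4, did not pass (0.37, SE 0.10, adjusted p by limma 0.0586). Chac1, which degrades glutathione, had levels of 3.45, 2.77, 4.38 and 3.95 on the Senp2-aKO arrays and of 2.77, 1.74, 2.47 and 2.05 on the controls. It rose (1.38, SE 0.36, adjusted p = 0.0481, n = 4 per group in limma), although aKO 2 and control 1 were nearly level. Cebpb, which encodes C/EBPβ, rose (0.79, SE 0.20, adjusted p = 0.0414). The stress-induced genes Nupr1 and Trib3 fell (-1.08, SE 0.25, and -1.04, SE 0.20). Chac1 and Cebpb passed in 1 of the 8 omissions of an array each, Nupr1 in 2 and Trib3 in 4. Over those omissions 0 to 3 genes of the list rose and 0 to 4 fell. Of 30 measured genes of amino acid sensing by mTORC1, 2 (6.67%) fell, against 5.72% of all genes, and 0 rose in limma. These were the leucine sensor family member Sesn3 (-0.53, SE 0.11) and Castor2, a relative of the arginine sensor (-0.62, SE 0.16). At an unadjusted p under 0.05, 3 of the 30 were higher and 6 lower, together 30% of the list and near the 31.2% of all genes, and the median was -0.04. Counts over the omissions ran from 0 to 2 in each direction for mTORC1 sensing.

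**Figure D4:**
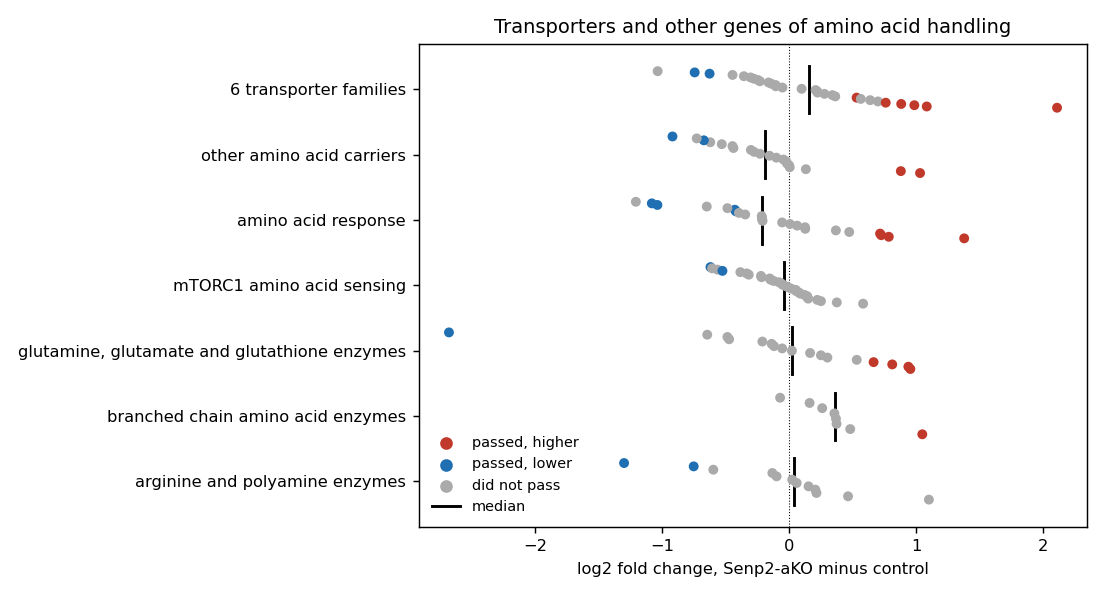
Log2 fold change (Senp2-aKO minus control) of the measured genes of the 6 carrier families and of the other lists of amino acid handling, 1 point per gene, with the list median as a black line. The carrier families have a median of 0.15, and the amino acid response has points on both sides of 0.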

How the data were processed

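RNA of inguinal fat in 4 Senp2-aKO and 4 control samples was labelled with Cy3 and read on Agilent arrays with 1 channel. Spot finding, background subtraction and removal of trends within arrays were done by the authors with Agilent Feature Extraction 11.5.1, per the file headers and per the notes the submitters gave. Of the deposited columns, 3 hold intensity values, unscaled between arrays (processed signal, and the medians of raw signal and of local background), and the deposited flags (unit other) are 0 or 1 per spot. A deposited matrix with 8 value columns whose names match no label was not used.

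The log2 processed signal of each spot had its array's 75th percentile subtracted, and a probe is the mean of its spots without outlier spots, which left out 269 probes. Probes well above background on at least 4 of 8 arrays were kept (30508). The files hold no gene names, and 27656 of 55681 probes were named through their RefSeq accession (GRCm38.p6). The 2 groups were fitted over all kept probes in limma 3.58.1 (R 4.3.3), with 0.05 as the limit of the Benjamini-Hochberg adjusted p. The fit was tested on simulated data, with 50 probes changed at each size. It recovered 34% of them at a log2 change of 0.5, 72% at 1, 92% at 2 and 62% at -1. Of its 141 calls 11 were false (7.8%). Genes with smaller changes can thus fail to pass. Alternatives changed the normalisation, the filter, the weights, the probes per gene, the block or the arrays used. The members and lists were chosen with earlier results of these data known. Named were all members that passed, 10 members fixed by role, and up to 4 genes that passed in each list. Atf4, which did not pass, was named besides. Same-numbered samples had correlations of -0.04 to 0.13 in their deviations from the group means, and were not taken as pairs.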

Additional observations from a re-analysis of the deposited data

Results flagged for a closer look

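In groups of 4 arrays, an array was singled out when its gap to the nearest other array was a share of its group's range above Dixon's 95% critical value for 4 values. Chance singles out about 1 in 20 groups, and 4 of 60 groups of carrier genes and 2 of 22 other groups were singled out. Slc38a1 was at 1.99 on aKO 2, against -0.87 to -0.64 on the other Senp2-aKO arrays, and the B lymphocyte list mean of the same array was 2.08, against -3.23 to -2.92. Slc1a4 was at 1.72 on aKO 3, against 2.36 to 2.45 on the other Senp2-aKO arrays. Slc7a3 was at -5.44 on aKO 3, where its probe was not above background, against -4.12 to -4.09. Slc43a2 was at 1.20 on control 3, against 0.80 to 0.87 on the other controls. The mammary epithelium list mean was -3.08 on aKO 4, against -2.22 to -2.15.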

How the results depend on the processing

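Of the 3 carrier calls that held in every omission of an array, those of Slc43a1 and Slc43a3 also held under quantile normalisation, normexp with it, both other filters, array weights, 1 probe a gene and the replicate block, as did that of Slc38a4 except that a filter on all 8 arrays leaves its probe out. With no filter on background the calls of Slc1a1, Slc1a3 and Slc7a4 ended (adjusted p = 0.0602, 0.0638 and 0.101), where more probes are tested. With the replicate block the calls of Slc1a1, Slc38a2 and Slc38a6 ended (0.0823, 0.0511 and 0.0687), and 1 carrier gene fell. Slc1a5 passed with array weights (0.0472). Slc1a4 passed with normexp on median signals plus quantile normalisation, the filter on all 8 arrays, array weights and 1 probe a gene (0.0422, 0.0494, 0.0338 and 0.0485), and Slc7a1 with the first, second and last of these (0.0301, 0.0466 and 0.0444).

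As reported, 1673 probes were higher and 1326 lower in Senp2-aKO fat. These counts were 910 and 534 with no filter, 2687 and 2253 with array weights, 1042 and 615 with the replicate block and 1074 and 1049 with 1 probe a gene. Of the calls as reported 55.8% were higher, against 50.6% with 1 probe a gene, 47.7% with quantile normalisation alone (1514 higher, 1658 lower) and 43.8% with normexp on median signals plus quantile normalisation (1705 higher, 2190 lower). Omissions gave 559 to 2048 higher and 281 to 1818 lower. Omissions gave 3 to 7 risen and 0 to 2 fallen carrier genes, and a carrier median of 0.007 to 0.197, against 0.15 as reported, 0.037 with normexp plus quantile normalisation and -0.003 with array weights. Senp2 passed with normexp plus quantile normalisation (log2 fold change -0.28, adjusted p = 0.0298), and its values over omissions were -0.30 to -0.25. The causes were not tested. Dim probes such as those of Slc7a3 and Slc1a6 limit what can be measured.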
